A study of Homo sapiens with 12 samples.

Results

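The nuclear-encoded respiratory chain was followed in U937, an established human line from a histiocytic lymphoma that grows as immature, monocyte-like cells. Its members were the protein-coding genes whose current symbols begin with NDUFA, NDUFB, NDUFC, NDUFS or NDUFV (complex I), UQCR (complex III), COX4 to COX8 (complex IV) or ATP5F, ATP5M or ATP5P (complex V), together with the SDH subunit genes of complex II. A gene was a member if a probe set of the array named it alone, and each gene was read from its brightest probe set, by the mean of the 12 arrays. This gave 84 of the 19775 genes measured, covered by 164 of 54675 probe sets. They were 33 complex I subunits, 8 complex I assembly factors whose NDUFAF symbols fall under the same letters, 3 subunits of complex II, 6 of complex III, 17 of complex IV and 17 of complex V. Another 9 protein-coding genes of these families had no probe set of their own and were not analysed here, among them SDHB of complex II and UQCRFS1 of complex III. The letters also matched 2 pseudogenes, which were left out, and 3 noncoding RNAs, which were kept apart.

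Every culture came from a U937 line stably carrying a TRIPZ Tet-On cassette of 1 hairpin clone against ZXDC1/2, the products of the zinc finger gene ZXDC, so each group carried the hairpin whether or not it was induced. The 4 groups were cells given 100 nM PMA with 0.5 µg/mL doxycycline, cells given PMA alone, cells given the vehicle (0.1% DMSO) with doxycycline, and cells given the vehicle alone, with 3 arrays each. Doxycycline was added daily for 4 days to induce the hairpin, and PMA, a phorbol ester that makes such cells stop dividing and take on macrophage features, or vehicle followed the first 2 of these days and stayed on for 3 days. The labels call the arrays biological replicates but do not say whether they were separate cultures, so the p-values measure the spread between these arrays. No group analysed here held the line without the hairpin.

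The labels were checked on marker genes and on ZXDC. Of 10 monocyte and macrophage markers 8 were measured, and 5 rose with PMA in each comparison, among them ITGAM by 4.81 (log2) without doxycycline. Of 6 immature myeloid markers 5 fell in each, among them ELANE by 3.51, while MPO lay between 3.96 and 4.50 on every array. The summed log2 level of the measured monocyte and macrophage markers lay between 65.3 and 71.7 on PMA arrays and between 50.4 and 52.5 on vehicle arrays. The lists for epithelial, endothelial, fibroblast and erythroid cells held no gene that passed the test, while the T cell list held CD3D, higher by 0.39 with doxycycline, and the B cell list held PAX5, with differences of -1.37 without and -1.16 with doxycycline. ZXDC gave 7.39, 7.43 and 7.02 with PMA and doxycycline and 7.96, 7.89 and 7.51 with PMA alone, against 7.16, 7.25 and 7.44 with vehicle and doxycycline and 8.01, 7.63 and 7.69 with vehicle alone. Averaged over both agents ZXDC was lower by 0.50 with doxycycline (exact permutation of arrays within agents, 400 relabelings, two-sided p = 0.005), though neither agent alone passed across all genes (adjusted p = 0.61 in PMA and 1.00 in vehicle). The relabelings did not keep same-numbered arrays together, so the permutation p-value makes no allowance for pairing. The ACTB probe sets at the 3′ and 5′ ends of the mRNA differed by 1.99 to 2.72 (log2) on the 4 arrays numbered 1 and by 0.71 to 1.64 on the other 8, so the main counts are also given for arrays numbered 2 and 3 alone.

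The respiratory chain sits in the inner mitochondrial membrane. Complex I takes electrons from NADH and complex II from succinate, both pass them to ubiquinone, complex III hands them to cytochrome c, and complex IV gives them to oxygen. Complexes I, III and IV pump protons as they work, and complex V, the ATP synthase, uses the returning protons to make ATP. A few core subunits of all complexes but complex II are encoded in mitochondrial DNA, and the rest, including all genes described here as members, are nuclear. Macrophages are known to shift between respiration and glycolysis as they differentiate and respond to stimuli.

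With PMA the signal fell for 16 of 33 complex I subunit genes and 6 of 17 ATP synthase genes, and for 1 of the 26 genes of complexes II, III and IV, in cells without doxycycline. The count of complex IV was 5 instead of 1 with probe sets averaged or an intensity trend in the variance, and 4 with array medians subtracted, and that of complex III was 1 or 2 instead of 0 under 7 of the alternatives. In all, 26 of the 84 members were lower with PMA than with vehicle there and 1 was higher (limma, Benjamini-Hochberg adjusted p under 0.05 over all genes). That is 31.0% of the members lower, beside 18.9% of all genes, and 1.19% higher, beside 12.7% of all genes. In either direction 32.1% of members passed, near the 31.7% of all genes. With doxycycline in both arms, 33 members were lower and 4 were higher, or 39.3% and 4.76%, beside 19.5% and 13% of all genes. In either direction 44.0% passed there, beside 32.5% of all genes. The median difference over the members was -0.14 without and -0.19 with doxycycline, beside 0.01 and -0.01 over all genes. On arrays numbered 2 and 3 alone 22 and 27 members were lower. Counted by arrays that did not overlap between the groups, 39 members were lower and 3 higher without doxycycline, beside 23% and 18.8% of all genes (41.8% in either direction), and 46 were lower and 7 higher with it, beside 24.4% and 18.1% (42.5%). After cyclic loess scaling 18 and 21 were lower, or 21.4% and 25%, beside 16.9% and 17.4% of all genes under that scaling, and the members' median moved to -0.06 and -0.10.

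**Figure D1:**
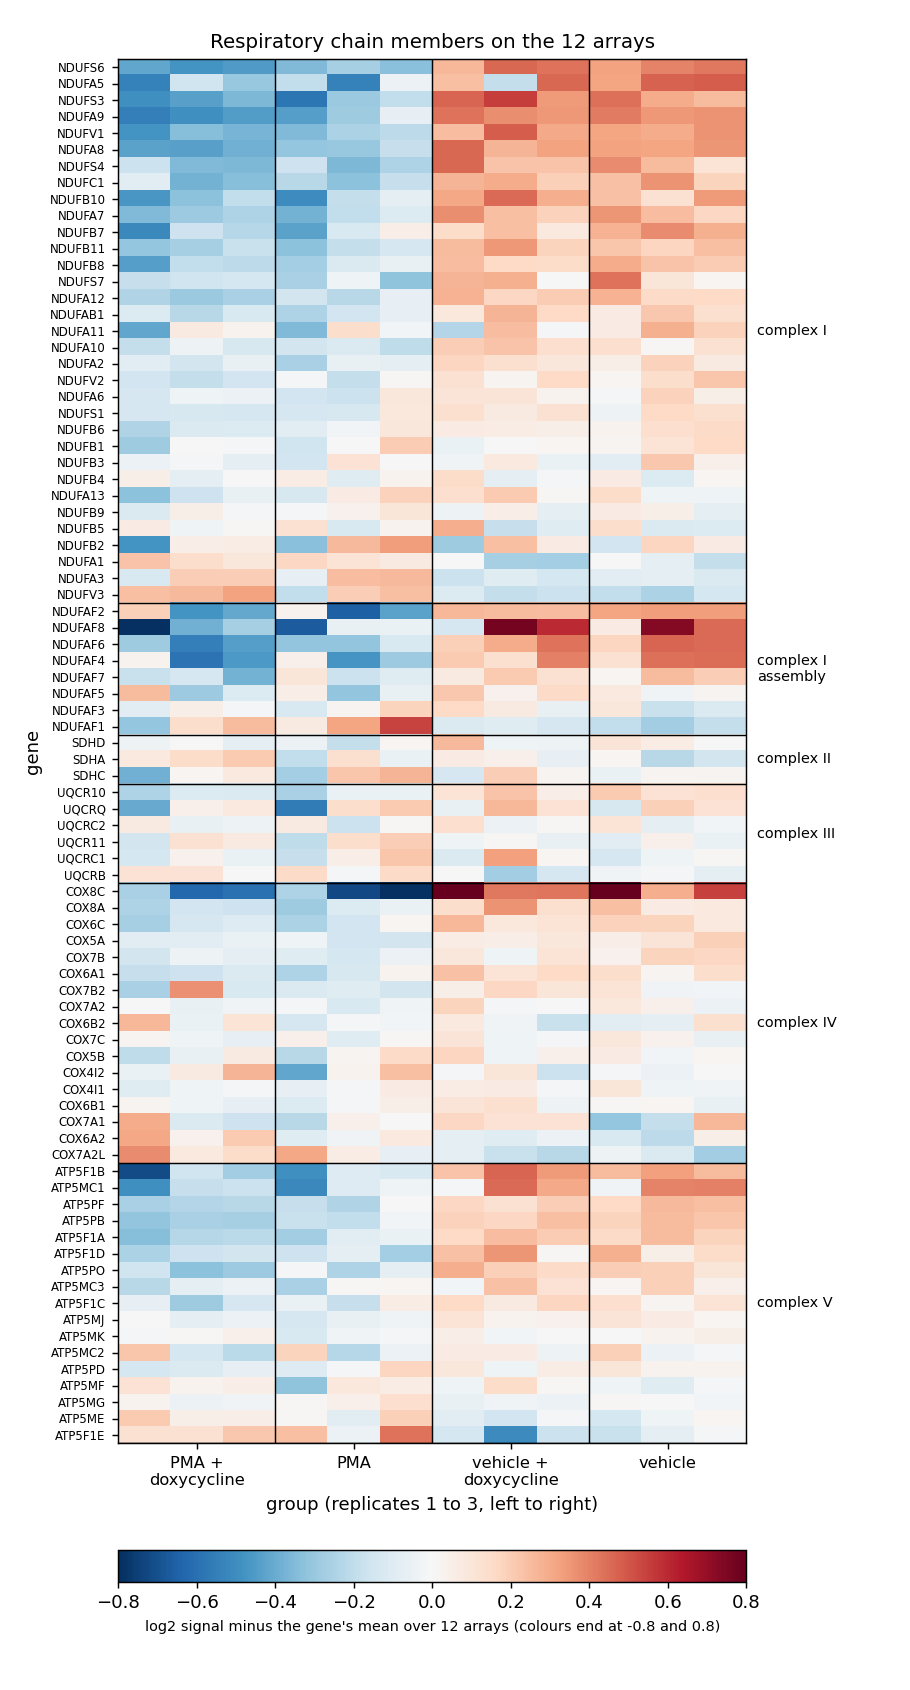
Signal of the 84 members (rows, by complex and within each by their PMA difference without doxycycline) on the 12 arrays (columns), as log2 signal minus the gene's mean over all arrays, with colours ending at -0.8 and 0.8. Most of the upper complex I rows are blue on the 6 PMA arrays and red on the 6 vehicle arrays, apart from NDUFA5 on vehicle with doxycycline array 2, and the complex II rows show no such break.

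The 2 PMA comparisons used different arrays for both arms. Same-numbered arrays with and without doxycycline deviated together (r = 0.25 to 0.64), so the comparisons are not taken as independent. Differently numbered arrays reached r = 0.39 in PMA and 0.24 in vehicle. Of the 84 members 24 were lower in both, 2 without doxycycline only and 9 with doxycycline only, while none was higher in both and 44 passed in neither. Over all 19775 genes 3325 were lower in both, 417 without doxycycline only and 530 with doxycycline only. There 2101 were higher in both and 12516 passed in neither. The sign was the same for 73 of 84 members and for 15344 of all 19775 genes. Across the members the differences of the 2 comparisons correlated at r = 0.929 (84 genes, which share the arrays), and across all 19775 genes at 0.965. Since whole cultures were measured, less RNA of a gene per cell and fewer cells that express it cannot be told apart.

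Complex I held 16 of the 26 falls without doxycycline and 16 of the 33 with it. Of its 33 subunits 16 were lower in each comparison, 15 of them the same genes, with a median of -0.26 without and -0.31 with doxycycline. None was higher without doxycycline, and NDUFA1 and NDUFV3 were higher with it. The falling genes included subunits of the matrix arm, where NADH is oxidised, and of the membrane arm, where protons are pumped. On arrays numbered 2 and 3 alone 12 subunits were lower without doxycycline and 14 with it, and leaving out each array in turn gave 13 to 16 and 13 to 17.

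The first falls concerned the NADH-oxidising tip. NDUFV1, the core subunit that binds NADH and flavin mononucleotide, gave 10.25, 10.36 and 10.40 with PMA, against 10.93, 10.91 and 10.96 with vehicle. The difference was -0.60 (SE 0.10, adjusted p = 3.3e-04), or 66.1% of the vehicle signal. With doxycycline the values were 10.13, 10.27 and 10.24 with PMA, against 10.85, 11.09 and 10.91 with vehicle, a difference of -0.74 (SE 0.10, adjusted p = 4.75e-05). The groups did not overlap in either comparison. The other core subunits of the tip, NDUFS1 and NDUFV2, which carry iron-sulfur clusters, differed by -0.14 and -0.19 without doxycycline and -0.24 and -0.27 with it, and neither passed the test.

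NDUFS6, a zinc-binding accessory subunit that joins the tip to the rest of the arm, gave 10.95, 11.04 and 10.97 with PMA, against 11.63, 11.70 and 11.73 with vehicle. It fell by 0.70 (SE 0.10, adjusted p = 5.6e-05), the lowest adjusted p among the members in that comparison. With doxycycline it gave 10.89, 10.83 and 10.85 with PMA, against 11.57, 11.76 and 11.74 with vehicle, and fell by 0.84 (SE 0.10, adjusted p = 9.6e-06). The groups stood apart in both comparisons. NDUFS4, an accessory subunit whose loss causes Leigh syndrome in patients, fell by 0.51 and 0.60, and NDUFA12, its neighbour in the tip, by 0.34 and 0.48.

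The quinone-reducing module of the matrix arm held falls as well. NDUFS3, a core subunit of this module, gave 10.19, 10.47 and 10.57 with PMA, against 11.21, 11.06 and 11.02 with vehicle, a difference of -0.69 (SE 0.12, adjusted p = 0.000375). With doxycycline it gave 10.28, 10.33 and 10.41 with PMA, against 11.23, 11.32 and 11.11 with vehicle, and the difference of -0.88 (SE 0.12) left 54.4% of the vehicle signal. NDUFA9, an accessory subunit that holds a nucleotide cofactor beside the quinone site, gave 9.78, 9.93 and 10.15 with PMA, against 10.63, 10.56 and 10.57 with vehicle (-0.64, SE 0.11, adjusted p = 3.3e-04). In both genes the groups stood apart, and without doxycycline the PMA arrays spread more widely than the vehicle arrays. With doxycycline NDUFA9 gave 9.66, 9.73 and 9.77 with PMA, against 10.65, 10.58 and 10.56 with vehicle, a difference of -0.88 (SE 0.11). NDUFA5 gave 10.92, 10.57 and 11.07 with PMA, against 11.44, 11.59 and 11.60 with vehicle (-0.69, SE 0.17, adjusted p = 0.0062). With doxycycline NDUFA5 fell by 0.50 (SE 0.17, adjusted p = 0.036), and there the groups overlapped, since vehicle with doxycycline array 2 lay at 10.92. NDUFS7, the core subunit that carries the last iron-sulfur cluster before ubiquinone, fell by 0.39 without doxycycline (adjusted p = 0.037) and differed by -0.34 with it (adjusted p = 0.060).

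In the membrane arm the accessory subunits split. NDUFA8, on the intermembrane side, gave 10.49, 10.49 and 10.61 with PMA, against 11.11, 11.11 and 11.15 with vehicle (-0.60, SE 0.10, adjusted p = 2.1e-04), and fell by 0.76 with doxycycline. Of the 11 NDUFB subunits, all of the membrane arm, 4 fell in each comparison: NDUFB7 by 0.48 and 0.46, NDUFB8 by 0.39 and 0.46, NDUFB10 by 0.49 and 0.68, and NDUFB11 by 0.43 and 0.51. NDUFC1, another membrane subunit, fell by 0.50 and 0.52. The remaining NDUFB subunits, NDUFB1 to NDUFB6 and NDUFB9, differed by -0.11 to 0.06 without doxycycline and by -0.21 to 0.01 with it. Their groups overlapped without doxycycline, as NDUFB4 shows: 12.72, 12.56 and 12.69 with PMA, against 12.72, 12.54 and 12.67 with vehicle. These values are from the brightest probe sets. A dim probe set of NDUFB6 was higher in both comparisons (0.79 and 0.92, adjusted p = 0.0028 and 9.15e-04 over all probe sets of 1 gene). The dimmer probe set of NDUFB4 was higher with doxycycline (0.63, adjusted p = 0.021).

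NDUFAB1, the mitochondrial acyl carrier protein that also serves fatty acid synthesis, fell by 0.29 and 0.32. NDUFA1, a small membrane subunit, ran the other way. It gave 12.90, 12.81 and 12.77 with PMA and doxycycline, against 12.68, 12.41 and 12.40 with vehicle and doxycycline, a rise of 0.33 (SE 0.11, adjusted p = 0.029) that no longer passed without array 1 or 2 of the PMA arm (0.29 and 0.34) or without array 2 or 3 of the vehicle arm (0.29 and 0.28). Without doxycycline its difference was 0.21 and did not pass. NDUFV3, an accessory subunit of the tip, was higher by 0.43 with doxycycline (adjusted p = 0.011) on its brightest probe set, while its other probe set gave -0.49, so its direction depends on the probe set. The counts by symbol group, set up after the values were seen, were 4 of 5 NDUFS, 1 of 3 NDUFV, 6 of 13 NDUFA and 4 of 11 NDUFB genes lower without doxycycline, and 3 of 5, 1 of 3, 7 of 13 and 4 of 11 with it.

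**Figure D2:**
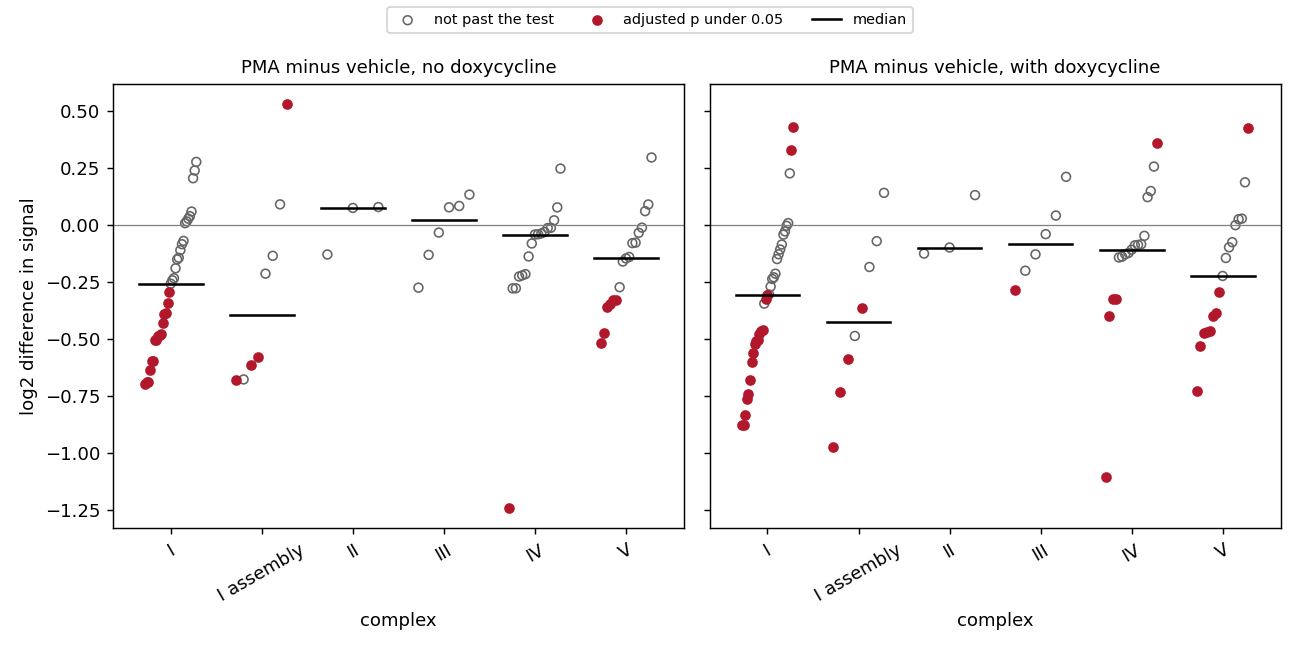
Log2 difference of PMA minus vehicle for each member (points, ordered by value within a complex), without doxycycline on the left and with doxycycline on the right. Filled points passed the test and black lines are medians. Complex I reaches from -0.70 to 0.28 on the left with 16 of 33 genes filled below 0, and the 3 complex II genes are open in both panels.

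The 8 NDUFAF assembly factors, which help build complex I without staying in it, moved apart from each other. Without doxycycline NDUFAF2, NDUFAF4 and NDUFAF6 fell and NDUFAF1 rose. With doxycycline NDUFAF4, NDUFAF6, NDUFAF7 and NDUFAF8 fell and none rose. The median was -0.40 and -0.43.

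NDUFAF6 gave 8.80, 8.79 and 8.99 with PMA, against 9.28, 9.58 and 9.56 with vehicle, a difference of -0.62 (SE 0.12, adjusted p = 0.0012), and it fell by 0.73 with doxycycline. NDUFAF2, a paralogue of NDUFA12, gave 10.22, 9.54 and 9.76 with PMA, against 10.51, 10.53 and 10.53 with vehicle (-0.68, SE 0.18, adjusted p = 0.0092). NDUFAF4 gave 10.02, 9.51 and 9.69 with PMA, against 10.10, 10.43 and 10.43 with vehicle (-0.58, SE 0.17, adjusted p = 0.019). In NDUFAF2 and NDUFAF4 PMA array 1, an array with a wide ACTB 3′ to 5′ gap, lay nearest to the vehicle arrays, and so did array 1 of the PMA arm with doxycycline. Without PMA array 2 the differences of NDUFAF2 and NDUFAF4 were -0.53 and -0.46 and passed no more, which left 1 assembly factor lower. NDUFAF4 also lost its call without PMA array 3 (-0.55), vehicle array 2 (-0.53) or vehicle array 3 (-0.52). On arrays numbered 2 and 3 alone 5 of the 8 were lower. With doxycycline NDUFAF4 and NDUFAF7 each lost their call in 3 of these cases, and the count was 2 without array 3 of the PMA arm or without array 2 or 3 of the vehicle arm.

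NDUFAF1, an early-acting assembly factor, gave 10.19, 10.44 and 10.66 with PMA, against 9.92, 9.84 and 9.93 with vehicle. The rise of 0.53 (SE 0.15, adjusted p = 0.012) made it the 1 member higher without doxycycline, and without PMA array 3 it was 0.42 and did not pass. With doxycycline NDUFAF1 gave 9.81, 10.26 and 10.37 with PMA, against 10.01, 10.02 and 9.98 with vehicle, so the groups overlapped and the difference of 0.14 (SE 0.15, adjusted p = 0.55) did not pass. The change of its PMA response with doxycycline was -0.39 (SE 0.21, unadjusted p = 0.083) and did not pass, so the 2 comparisons were not shown to differ. NDUFAF8 gave 7.58, 8.24 and 8.35 with PMA and doxycycline, against 8.49, 9.38 and 9.22 with vehicle and doxycycline, a difference of -0.97 (SE 0.27, adjusted p = 0.011). Its array 1 was the lowest of each group, and without array 2 of the vehicle arm the difference was -0.80 and did not pass. On its brightest probe set of a type that does not share sequence with others, which was dim, NDUFAF8 differed by -0.07.

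No complex II gene passed the test in either comparison on its brightest probe set. SDHA, the flavoprotein that oxidises succinate and also serves the citric acid cycle, gave 10.54, 10.87 and 10.69 with PMA, against 10.76, 10.52 and 10.60 with vehicle (0.08, SE 0.11, adjusted p = 0.69). SDHD, a membrane anchor of the complex, gave 11.43, 11.29 and 11.49 with PMA, against 11.58, 11.54 and 11.48 with vehicle (-0.13, SE 0.11). The groups overlapped in both. SDHC, the other anchor, gave 10.42, 10.91 and 10.96 with PMA, against 10.63, 10.71 and 10.71 with vehicle (0.08, SE 0.16), and array 1 was the lowest PMA array. With doxycycline the differences of SDHA, SDHC and SDHD were 0.13, -0.13 and -0.10. SDHA and SDHC were read through probe sets of a type that can match other sequences, and SDHC gave 0.39 with doxycycline on its brightest probe set of another type (adjusted p = 0.045 over all probe sets of 1 gene). Another dim probe set of SDHC was higher there as well (0.32, adjusted p = 0.049).

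Complex III had UQCR10, a small subunit of 6 measured, as its 1 gene past the test. UQCR10 gave 11.88, 12.02 and 12.01 with PMA and doxycycline, against 12.23, 12.36 and 12.18 with vehicle and doxycycline (-0.29, SE 0.10, adjusted p = 0.046). The groups did not overlap, but the call was lost when any array but PMA array 1 was left out, with differences of -0.33 to -0.24. Without doxycycline UQCR10 differed by -0.27 (adjusted p = 0.056). UQCRC1 and UQCRC2, the large subunits on the matrix side, differed by 0.08 and -0.03 without doxycycline and by -0.13 and -0.04 with it. UQCRQ, UQCR11 and UQCRB lay between -0.20 and 0.21 in both comparisons, with SEs up to 0.19. Dimmer probe sets of UQCR10 and UQCR11 were lower in both comparisons, by differences of -0.75 and -1.002 for UQCR10 (adjusted p = 4.7e-04 and 3.5e-05 over all probe sets of 1 gene) and of -0.52 and -0.57 for UQCR11 (adjusted p = 0.011 and 0.0058). A dim probe set of UQCRB was lower with doxycycline (-0.58, adjusted p = 0.013).

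In complex IV the fall past the test without doxycycline was that of COX8C, an isoform of the COX8 subunit best known from testis. COX8C gave 8.06, 7.59 and 7.24 with PMA, against 9.16, 8.60 and 8.86 with vehicle. The difference of -1.24 (SE 0.22, adjusted p = 4.1e-04) left 42.2% of the vehicle signal and was the largest of the 84 members. In the doxycycline arms it gave 8.05, 7.68 and 7.71 with PMA, against 9.29, 8.73 and 8.74 with vehicle, a difference of -1.10 (SE 0.22, adjusted p = 1.0e-03). The groups stood apart in both comparisons, and array 1 was the highest of each group. It was the only complex IV gene of 17 that passed without doxycycline, and 2 passed when PMA array 3 was left out.

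With doxycycline COX8A, COX6C and COX6A1 fell too, by 0.40, 0.32 and 0.33, and COX7A2L rose by 0.36. COX8A is the COX8 isoform of most tissues. It gave 12.06, 12.15 and 12.14 with PMA and doxycycline, against 12.44, 12.67 and 12.43 with vehicle and doxycycline (SE 0.11, adjusted p = 0.011). Its call was lost without array 2 of the vehicle arm (-0.32), and those of COX6C and COX6A1 without array 1 or 2 of the PMA arm or array 1 or 3 of the vehicle arm, which leaves 2 complex IV genes lower in those 4 cases. COX7A2L, which links complexes III and IV into supercomplexes, gave 12.04, 11.74 and 11.81 with PMA and doxycycline, against 11.58, 11.49 and 11.44 with vehicle and doxycycline (SE 0.12, adjusted p = 0.038). It lost its call without array 1 or 3 of the PMA arm (0.27 and 0.39), without array 2 or 3 of the vehicle arm (0.35 and 0.33), and without array 2 of vehicle alone (0.36).

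COX4I1, the regulatory subunit of most tissues, gave 12.83, 12.89 and 12.96 with PMA, against 12.99, 12.86 and 12.87 with vehicle, so the groups overlapped (-0.01, SE 0.09). COX6B1, which bridges the complex's dimer, differed by -0.01 (SE 0.10) without doxycycline and -0.09 with it. COX7A2 differed by -0.08 in each. COX7B lay lower with PMA on every array without doxycycline (-0.22, adjusted p = 0.10) and with it (-0.14) but did not pass, and COX5A behaved likewise (-0.23 and -0.14). Their dimmer probe sets gave larger differences, -0.95 and -1.07 for COX5A (adjusted p = 0.0029 and 0.0011 over all probe sets of 1 gene) and -1.36 and -1.61 for COX7B (adjusted p = 0.054 and 0.024). The isoforms of muscle, lung or testis other than COX8C, namely COX4I2, COX6A2, COX6B2, COX7A1 and COX7B2, had mean signals of 3.60 to 5.97, between the 22.0th and 62.1st percentile of all probe sets. None of these dim genes passed, with differences of -0.14 to 0.08 without doxycycline and -0.13 to 0.26 with it. The NDUFA4 genes, once counted to complex I and now named COXFA4, COXFA4L2 and COXFA4L3, were not members, and none passed, with differences of 0.05 to 0.38.

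Complex V held falls in its catalytic head and in the stalks. Of its 17 genes 6 fell without doxycycline and 8 with it, the 6 being among the 8, and ATP5F1E rose with doxycycline. Without PMA array 1 or vehicle array 2 the 6 became 3, and without array 2 of the vehicle arm with doxycycline the 8 became 5. ATP5MC1 of the membrane ring fell too. After cyclic loess scaling the counts were 2 and 5, and without probe set types that can match other sequences 2 and 4. In the latter, ATP5F1D, ATP5MC1 and ATP5PF, which fell in the main fit, were not measured, since they have no probe set of another type.

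ATP5F1B, the catalytic beta subunit, gave 11.66, 12.04 and 12.03 with PMA, against 12.41, 12.48 and 12.40 with vehicle, a difference of -0.52 (SE 0.15, adjusted p = 0.0145). With doxycycline it gave 11.43, 11.99 and 11.87 with PMA, against 12.38, 12.61 and 12.49 with vehicle, and fell by 0.73 (SE 0.15, adjusted p = 0.0014). The groups stood apart, with array 1 lowest in each PMA group, and without PMA array 1 or vehicle array 2 the first difference was -0.39 or -0.49 and did not pass. ATP5F1A, the alpha subunit beside it, gave 13.29, 13.49 and 13.51 with PMA, against 13.72, 13.82 and 13.74 with vehicle (-0.33, SE 0.10, adjusted p = 0.019), and fell by 0.46 with doxycycline. Its first difference was -0.26 without PMA array 1 and -0.30 without vehicle array 2, and did not pass there. ATP5F1D, the delta subunit of the central stalk, fell by 0.33 and 0.39. The first of these calls was lost in 7 of the 12 cases of 1 array left out: PMA array 1 or 3, vehicle array 1 or 3, array 2 or 3 of PMA with doxycycline, or array 1 of vehicle with doxycycline, with differences of -0.33 to -0.27. ATP5F1C, the gamma subunit that turns inside the head, fell by 0.29 with doxycycline, and a dimmer probe set of it gave 1.17.

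ATP5F1E, the small epsilon subunit, gave 12.93, 12.93 and 13.02 with PMA and doxycycline, against 12.67, 12.30 and 12.64 with vehicle and doxycycline (0.43, SE 0.14, adjusted p = 0.026). The groups did not overlap, and the call was lost without array 2 or 3 of the PMA arm (0.44 and 0.39) or without array 2 of the vehicle arm (0.31). With its probe sets averaged the difference was 0.06. Of the 4 peripheral stalk genes, ATP5PB fell by 0.35 and 0.47, ATP5PF by 0.36 and 0.40, and ATP5PO by 0.47 with doxycycline after -0.27 without it (adjusted p = 0.058). ATP5PB gave 13.24, 13.21 and 13.39 with PMA, against 13.59, 13.66 and 13.63 with vehicle, with no overlap. ATP5PD differed by -0.03 and -0.14 and did not pass.

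The 3 genes for subunit c encode the same ring-forming protein with different leader peptides. ATP5MC1 gave 9.68, 10.09 and 10.16 with PMA, against 10.16, 10.59 and 10.60 with vehicle, and fell by 0.48 (SE 0.17, adjusted p = 0.047). Array 1 was the lowest in both groups, and PMA array 3 and vehicle array 1 both lay at 10.16. The call was lost in 7 of 12 cases of 1 array left out: any of PMA arrays 1 and 2, vehicle arrays 2 and 3, arrays 2 and 3 of PMA with doxycycline, or array 3 of vehicle with doxycycline, with differences of -0.53 to -0.33. With doxycycline it fell by 0.53 (adjusted p = 0.027), and not without array 1 of the PMA arm (-0.43) or array 2 or 3 of the vehicle arm (-0.43 and -0.50). ATP5MC2 differed by -0.08 in each comparison and ATP5MC3 by -0.16 and -0.22, and neither passed. On their brightest probe sets none of the 5 small membrane subunits ATP5ME, ATP5MF, ATP5MG, ATP5MJ and ATP5MK passed, with differences of -0.14 to 0.09 and -0.10 to 0.19. The other probe set of ATP5MJ, of a type that does not share sequence and with a mean of 10.24, was lower in both comparisons. It differed by -0.55 and -0.38 (adjusted p = 0.0029 and 0.028 over all probe sets of 1 gene). ATP5MF was read only by a dim probe set with a mean of 5.02.

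**Figure D3:**
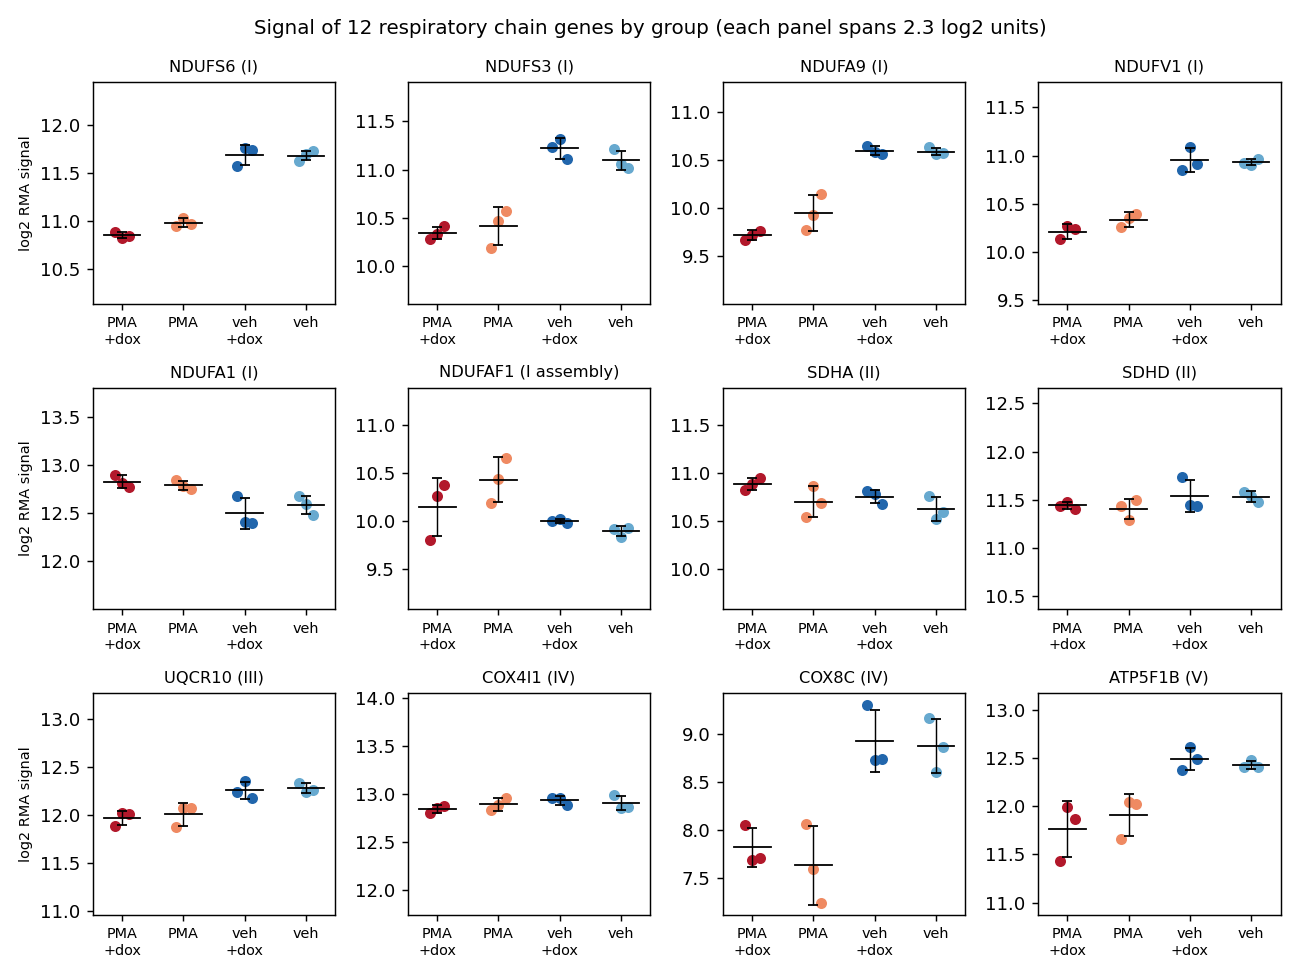
Log2 signal of 12 members on each array, by group (points for the 3 arrays, lines for the mean, bars for the SD), with PMA groups left of vehicle groups and every panel spanning the same number of log2 units. NDUFS6, NDUFS3, NDUFA9, NDUFV1, COX8C and ATP5F1B lie lower in both PMA groups, while the PMA and vehicle means of SDHA, SDHD and COX4I1 differ by at most 0.13 in each doxycycline state.

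Doxycycline, given to induce the hairpin, moved no member past the test, in PMA, in vehicle or in the interaction of both. Since every group carried the hairpin, effects of the drug itself and of the hairpin cannot be told apart. Across all genes 0.00506% passed in PMA and 0% in vehicle and in the interaction (limma, adjusted). At an unadjusted p under 0.05 there was 1 member of 84 in PMA, beside 6.14% of all genes, and 0 in vehicle and in the interaction, beside 2.58% and 2.62%. The member was NDUFA9, with 9.66, 9.73 and 9.77 in PMA with doxycycline, against 9.78, 9.93 and 10.15 in PMA alone. The groups touched without overlapping, and the difference was -0.23 (SE 0.11, unadjusted p = 0.050, adjusted p = 0.81). NDUFA13, a membrane-arm subunit, and NDUFAF1 followed with -0.23 (SE 0.12) and -0.28 (SE 0.15). In vehicle the smallest p-values belonged to NDUFA5 (-0.26, SE 0.17), ATP5F1E (-0.19, SE 0.14) and COX7A1 (0.21, SE 0.16).

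With doxycycline 57 of 84 members had a lower mean in PMA, with a median of -0.04, and 36 of 84 in vehicle, with a median of 0.01. Over all 19775 genes 10197 had a lower mean in PMA and 8843 in vehicle, with medians of -0.01 and 0.02. In PMA the members differed by -0.31 to 0.20 and in vehicle by -0.26 to 0.21. Fits that treated same-numbered arrays as pairs also called no member for doxycycline. The SEs of these differences lay between 0.09 and 0.27, so changes of that size could not be told from 0. Changes of several SEs could be missed as well. LYRM7, which is not a member, differed by -0.61 (SE 0.15) in PMA and did not pass (limma, adjusted p = 0.44). By arrays that did not overlap, 6 members were lower and 0 higher in PMA, beside 5.9% and 4.83% of all genes (10.7% in either direction), and 4 were lower and 1 higher in vehicle, beside 3.47% and 5.08% (8.56%). The doxycycline comparisons share their arrays with the PMA comparisons.

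The share of lower genes also moved with how bright the probe set was. Without doxycycline 15.6% of all genes with a mean signal under 9 were lower, 33.7% from 9 to 11, 34.4% from 11 to 12 and 19.8% above 12. Complex I genes were mostly of middle signal, with a median of 11.3, and complexes III, IV and V brighter, with medians of 12.03, 12.3 and 12.5. Within the bin from 9 to 11, 9 of 14 complex I genes were lower, and from 11 to 12, 6 of 14. Above 12 it was 1 of 5 complex I genes. Of the other members 1 of 10 were lower under 9, 5 of 11 from 9 to 11, 0 of 5 from 11 to 12 and 4 of 25 above 12. With doxycycline the counts of complex I were the same, and 10 of the 25 other members above 12 were lower (40%), beside 23.5% of all genes. The part of brightness in the difference between complexes was not tested, and the difference between complexes itself was not tested either.

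Of the 48 members with several probe sets, all probe sets had the same sign in 25 without doxycycline and in 22 with it. NDUFB8 had probe sets past the test in both directions without doxycycline, and NDUFB8, NDUFV3 and ATP5F1C with it. Counted over all 164 probe sets of members, 36 were lower and 3 higher without doxycycline, and 49 were lower and 10 higher with it. The shares were 22.0% lower and 1.83% higher, beside 15.5% and 11.3% of all 41091 probe sets of 1 gene, and with doxycycline 29.9% and 6.10%, beside 16.1% and 11.7%. Leaving out probe sets of types that can match other sequences gave 20 members lower without doxycycline and 26 with it. These counts are over fewer members, since members with no probe set of another type were not measured there. Among those lost were NDUFA12, NDUFB10 and NDUFB11, which fell in both comparisons of the main fit. Part of the drop from the main counts can therefore be lost genes, and shares of the members still measured are not given here.

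Genes outside the rule that build, feed or regulate the chain were read from lists. Of 11 further complex I assembly genes 8 fell without doxycycline and 9 with it, with medians of -0.60 and -0.79. NUBPL, which delivers iron-sulfur clusters to complex I, gave 6.18, 5.85 and 5.96 with PMA, against 6.99, 7.38 and 7.15 with vehicle (-1.18, SE 0.15). TMEM186, FOXRED1 and DMAC1 fell by 0.96, 0.94 and 0.86. Of 4 complex II assembly genes SDHAF3 alone passed, with a difference of -1.90 without doxycycline. With doxycycline it gave 7.61, 8.07 and 7.88 with PMA, against 9.51, 9.35 and 9.78 with vehicle (-1.69, SE 0.19).

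Around complex III, 4 of 12 genes fell and 1 rose without doxycycline, and 7 fell and 1 rose with it. LYRM7 and BCS1L, both needed to insert the Rieske iron-sulfur protein, had differences of -1.82 and -0.87, and UQCC3, an early assembly factor, of -1.49. CYC1, the cytochrome c1 subunit of complex III, whose symbol lies outside the rule, fell by 0.61 without doxycycline (SE 0.11, adjusted p = 4.3e-04). In the doxycycline arms CYC1 gave 10.78, 10.94 and 10.86 with PMA, against 11.57, 11.84 and 11.58 with vehicle (-0.80). Cytochrome c itself (CYCS) differed by -0.25 (adjusted p = 0.096). TTC19, which clears Rieske fragments, rose by 0.60 and 0.87.

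Of 27 complex IV assembly genes 12 fell without doxycycline, and 14 fell and 1 rose with it. Without doxycycline the largest falls were those of COA4 (-0.98), COX15 (-0.96), which makes heme a, LRPPRC (-0.94), which stabilises mitochondrial mRNAs, and SCO1 (-0.88), a copper chaperone. With it they were those of SCO1 (-1.03), COX20 (-1.01), COX11 (-1.004) and LRPPRC (-0.96). COX17, another copper chaperone read by a dim probe set, rose by 0.69 with doxycycline. Of 6 genes listed under ATP synthase assembly and inhibition 3 fell and 1 rose in each comparison. FMC1 fell by 1.75 and 2.11, ATPAF1 by 0.95 and 0.98, and ATP5IF1, the inhibitor of the enzyme, by 0.55 and 0.61. The rise was that of STMP1, by 0.39 and 0.41, and a role of STMP1 in building or inhibiting the enzyme is not established here.

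The quinone pool list moved in both directions. Of 17 genes 11 fell and 2 rose in each comparison. COQ3 and COQ2, enzymes of ubiquinone synthesis, had differences of -1.98 and -1.64 without doxycycline, DHODH, the pyrimidine synthesis enzyme that feeds the pool, of -1.45, and COQ8A of -1.14. COQ10B, a ubiquinone-binding protein, rose by 1.66 and SQOR, the sulfide dehydrogenase that feeds electrons to ubiquinone, by 1.11. Of 13 mitochondrial-DNA-encoded subunits 7 were measured, and MT-ND6 fell by 0.74 and 0.76. MT-ND2 fell by 0.60 with doxycycline, and its difference of -0.43 without it did not pass (adjusted p = 0.12). MT-CO1, MT-CO2 and MT-ND4 differed by -0.14 to 0.00.

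**Figure D4:**
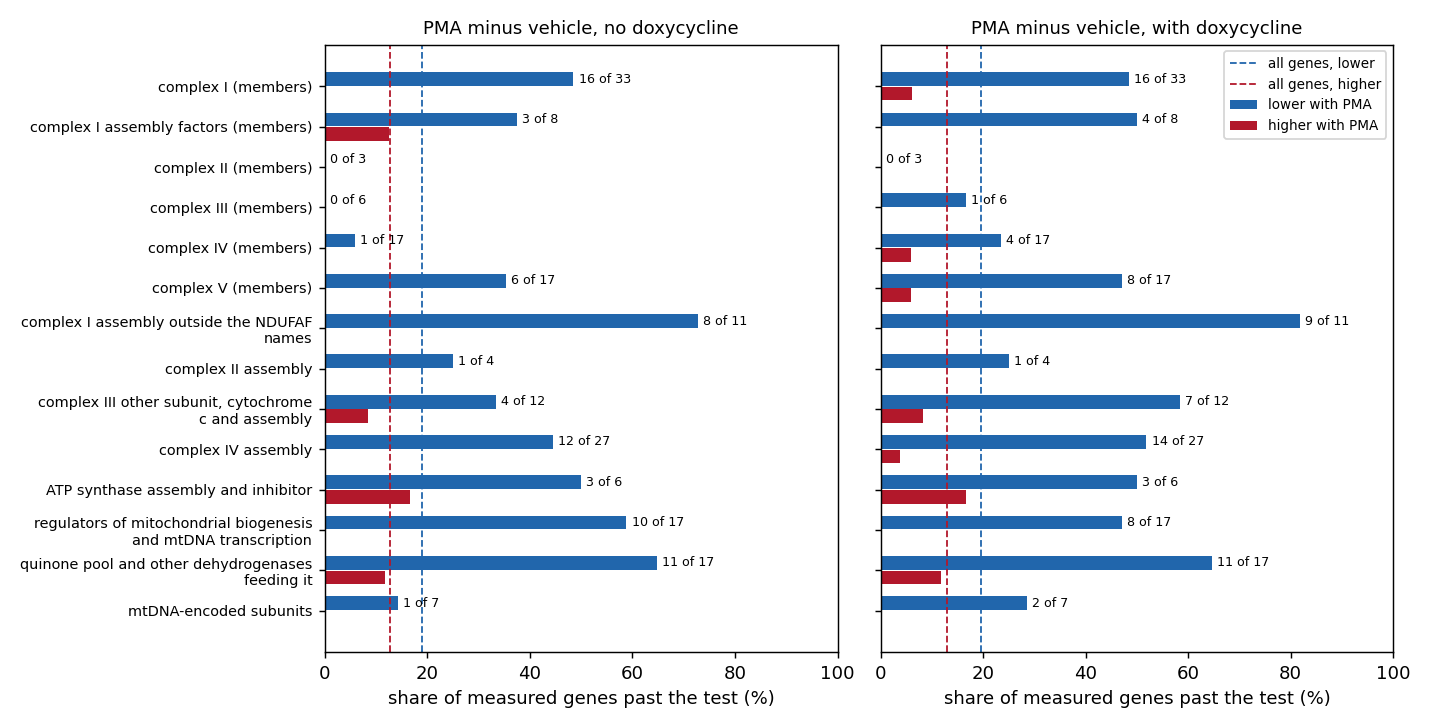
Share of measured genes (%) lower (blue) or higher (red) with PMA in each complex and in each associated list, without doxycycline on the left and with it on the right, with counts of lower genes beside the bars. Dashed lines mark the shares of all genes lower (18.9% left, 19.5% right) and higher (12.7% left, 13% right). Complex I assembly genes outside the NDUFAF names reach 8 of 11 and 9 of 11 lower, and complex II subunits 0 of 3.

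Among 17 regulators of mitochondrial biogenesis and of mitochondrial DNA transcription 10 fell without doxycycline and 8 with it, and none rose. PPARGC1A, the coactivator PGC-1 alpha, gave 6.20, 4.87 and 4.75 with PMA, against 8.70, 7.56 and 7.57 with vehicle (-2.67, SE 0.48), with array 1 highest in both groups. TFAM, which packages and transcribes mitochondrial DNA, gave 9.36, 9.02 and 9.25 with PMA, against 10.01, 10.54 and 10.45 with vehicle (-1.13, SE 0.16). NRF1, the nuclear respiratory factor that binds many promoters of this family, gave 7.14, 6.89 and 7.04 with PMA, against 7.41, 7.80 and 7.81 with vehicle (-0.65, SE 0.13, adjusted p = 0.0011), and fell by 0.69 with doxycycline. GABPB1, a subunit of GABP, the ETS-family factor also called NRF-2, fell by 0.70 and 0.74, while its DNA-binding partner GABPA (-0.25 and -0.03) and YY1 (-0.25 and 0.07) did not pass.

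Promoter windows of the members were searched for the motifs of these 3 factors, since the factors' own mRNA was measured here. The windows run from 250 bases before to 50 after each start listed by RefSeq on GRCh38.p14. Such windows were at hand for 72 of the 84 members, 90 windows in all because some genes have several starts. The NRF1 motif, searched on both strands as all motifs were, stood in 17 of the 90 windows (18.9%), beside 5.78% of all 35116 windows and 7.39% of those of protein-coding genes. The ETS motif CCGGAAG stood in 25.6%, beside 10.3% of all windows, and the YY1 motif AAGATGGCG in 12.2%, beside 1.75%. Among windows of protein-coding genes the shares of these 2 motifs were 12.8% and 2.41%. The ETS motif ends with the letters that open the YY1 motif, so that 1 stretch can hold both. Of the YY1 matches in members 9 of 11 began 9 to 25 bases after the start. The windows of genes that fell without doxycycline held the NRF1 motif in 12.9% (4 of 31), those of the other members in 22.0% (13 of 59). For the YY1 motif the shares were 22.6% (7 of 31) and 6.78% (4 of 59), and for the ETS motif 19.4% (6 of 31) and 28.8% (17 of 59). Any of the 3 motifs stood in 45.2% (14 of 31) and 47.5% (28 of 59). A match is a string of letters and not a measured site.

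The stretches before the start of 4 members are shown with the matches in capitals, as genes that fell (NDUFA9 and NDUFS3) and genes that did not pass (SDHA and NDUFB4) both carry them. All lie on the plus strand of GRCh38.p14, at chr12:4648984-4649113 for NDUFA9, chr11:47578944-47579073 for NDUFS3, chr5:218120-218319 for SDHA and chr3:120596136-120596315 for NDUFB4. NDUFA9 holds 1 NRF1 match, NDUFS3 2 ETS matches on opposite strands, SDHA 4 NRF1 matches beginning 166, 117, 68 and 19 bases before the start, and NDUFB4 2 NRF1 matches.
NDUFA9: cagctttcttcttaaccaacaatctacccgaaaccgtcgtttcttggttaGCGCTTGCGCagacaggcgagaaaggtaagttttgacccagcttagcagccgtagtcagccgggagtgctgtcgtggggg
NDUFS3: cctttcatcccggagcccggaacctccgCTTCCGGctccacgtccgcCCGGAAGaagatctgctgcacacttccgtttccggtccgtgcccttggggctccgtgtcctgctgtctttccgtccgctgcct
SDHA: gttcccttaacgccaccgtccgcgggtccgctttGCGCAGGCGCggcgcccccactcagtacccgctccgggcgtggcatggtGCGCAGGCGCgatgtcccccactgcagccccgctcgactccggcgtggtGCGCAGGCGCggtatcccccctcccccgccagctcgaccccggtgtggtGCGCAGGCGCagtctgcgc
NDUFB4: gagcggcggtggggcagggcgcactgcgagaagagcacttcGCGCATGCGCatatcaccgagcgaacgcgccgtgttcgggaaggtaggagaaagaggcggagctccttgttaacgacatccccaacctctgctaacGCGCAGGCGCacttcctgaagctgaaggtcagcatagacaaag
SDHA, with the most NRF1 matches of the 4, differed by 0.08 and 0.13 with PMA and did not pass, while NDUFA9, with 1 match, fell by 0.64 and 0.88. The 4 genes were picked with their values in view, and a link between matches and the PMA response was not tested.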

How the data were processed

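The deposited values are RMA log2 signals of 12 Affymetrix HG-U133 Plus 2.0 arrays (RMA is named in the submitters' processing notes). Its version is not given in the sources used here. RNA (100 ng) was labelled with a 3′ IVT kit, per the labels. The values were used without further scaling, and RMA compresses differences. Of 54675 probe sets 41091 named 1 gene, 1801 several, 11721 none and 62 were controls; symbols of 41037 were looked up through Entrez numbers. The brightest probe set stood for each of 19775 genes, with no filter on dim genes.

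Group means over all 12 arrays were fitted with lmFit and eBayes (limma 3.58.1, R 4.3.3; 8 residual and 5.6 prior degrees of freedom), two-sided, with Benjamini-Hochberg adjustment over all genes and a threshold of 0.05. The comparisons were PMA against vehicle without and with doxycycline, doxycycline against none in each agent, and the interaction. The procedure was tested on simulated data. Members and lists were chosen with earlier results of these data known. Genes named were, per complex and comparison, up to 6 called falls and 4 called rises without overlap, for doxycycline the 3 members of smallest p, then isoform pairs and SDH genes, and per list up to 4 called genes a direction; other genes named, and the groups of subunits by role or symbol, were picked with their values in view. The doxycycline comparisons share arrays with those of PMA. Alternatives were other scalings, probe set choices, filters, variance models, array subsets and replicate blocks.

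The labels number the arrays 1 to 3 in each group. Deviations from group means of same-numbered arrays with and without doxycycline correlated at 0.64, 0.29 and 0.32 in PMA and 0.57, 0.25 and 0.31 in vehicle. All were over the limit of 0.1. Differently numbered arrays reached 0.39 in PMA, above numbers 2 and 3 there, and 0.24 in vehicle, so only number 1 stood well apart. Pairing within agents was thus an assumption from the data and not from the labels, used only in alternative fits. Between PMA and vehicle the correlations were 0.16, -0.01 and 0.15 without and 0.20, 0.07 and 0.06 with doxycycline, and no pairing was assumed. Precision is limited by having 3 arrays in a group.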

Additional observations from a re-analysis of the deposited data

How the results depend on the processing

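Of the single members tested under alternatives, 1676 values counted as unchanged, 103 lost their call, 9 gained it and 3 reversed. Unchanged values kept their side of the threshold, but those that passed in neither fit could change sign. A value was reversed if its sign changed and it passed in either fit. The cause was not tested. The reversed values were NDUFV3 with doxycycline at -0.030 with probe sets averaged and -0.49 without cross-matching probe set types, and SDHC at 0.39 without those types. Of the counts and the ZXDC values together 469 were unchanged, which for a count means within 1.5 times, and 65 counts moved. Counts without cross-matching types are over fewer genes, since genes with no other probe set type were not measured there. Part of such a move can therefore be lost genes. Without doxycycline the moved counts were, for assembly factors lower (3), 5 on arrays 2 and 3; for complex III lower (0), 1 under array medians, the dim filter, the intensity trend, averaged probe sets, quantile scaling and the replicate block, and 2 without cross-matching types; for complex IV lower (1), 4 under array medians, 3 under the dim filter, 5 under the trend and under averaged probe sets, and 2 under quantile scaling and without cross-matching types; for complex V lower (6), 2 under cyclic loess and without cross-matching types and 3 in the 2-group fit; and for members higher (1), 3 on arrays 2 and 3, 6 under loess, and 2 under averaged probe sets and without cross-matching types. With doxycycline they were, for assembly factors (4), 2 without cross-matching types; for complex III (1), 0 on arrays 2 and 3, under loess and in the 2-group fit and 2 without cross-matching types; for complex IV (4), 2 on arrays 2 and 3 and 1 under loess; for complex V (8), 5 under loess and 4 without cross-matching types; for members higher (4), 7 under loess and without cross-matching types and 2 under quantile scaling; and for members lower (33), 21 under loess. Leaving out 1 array at a time gave, without doxycycline, 20 to 27 members lower, 0 to 3 higher, 13 to 16 complex I, 1 to 4 assembly factor, 1 to 2 complex IV and 3 to 6 complex V genes lower, and 0 in complexes II and III. With doxycycline it gave 23 to 33 lower, 1 to 4 higher, 13 to 17 complex I, 2 to 5 assembly factor, 0 to 1 complex III, 2 to 4 complex IV and 5 to 8 complex V genes lower. The replicate block over all groups gave 29 and 36 members lower, and the block for each of the 6 pairs called 0 members for doxycycline, with ZXDC at an adjusted p of 0.107 (PMA) and 0.79 (vehicle). Doxycycline and interaction counts were 0 under all alternatives run.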
